A study of Mus musculus with 2 samples.

Results

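The 33 genes described here belong to the type I interferon response, as expressed at rest in the left cerebral cortex of adult mice. They were taken by gene symbol from a given list, all 33 were found, and all are protein coding, among 55536 genes in the tables of which 22028 are protein coding. Total RNA was sequenced in 2 libraries, 1 from each of 2 female B6CASTF1/J mice (the F1 hybrid of C57BL/6J and CAST/EiJ) aged 8 to 10 months. No allele was altered, and the labels give no treatment, infection or interferon dose. Replicate 1 is animal 1 and replicate 2 is animal 5, although the labels give both the same donor entry. The gene tables hold 28327434 estimated counts for replicate 1 and 30234441 for replicate 2, of which the 33 genes took 4669 and 5555. With 1 group and 1 library per animal there is no contrast to test, so differences between the animals are given with their counting error and no p-value.

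Type I interferons are secreted proteins that bind a receptor made of IFNAR1 and IFNAR2. The receptor activates the kinases JAK1 and TYK2, which phosphorylate STAT proteins. STAT2 is joined with IRF9 in the complex ISGF3, which binds the interferon-stimulated response element (ISRE) in the promoters of antiviral genes. Several of those genes encode the sensors and factors of the same pathway, so that the response feeds itself. In unchallenged tissue many cells keep a low, tonic expression of these genes. In the brain, microglia, endothelial cells, astrocytes and neurons are all known to respond to interferon.

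The letters that ISGF3 reads lie close to the start of many of these genes, and the stretches below are shown because they span the levels measured, from Oas1a, the lowest of the 33 genes, to Stat2, among the highest. The ISRE core searched was GAAANNGAAA on both strands, in windows running from 250 bases before to 50 bases after each start (RefSeq, build GRCm38.p6, the assembly of mm10). Capitals mark the matched letters, including overlapping matches, with 12 bases on either side, and each stretch is written 5′ to 3′ in the direction of the gene.
Isg15: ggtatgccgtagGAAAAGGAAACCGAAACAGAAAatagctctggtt
Ifit1: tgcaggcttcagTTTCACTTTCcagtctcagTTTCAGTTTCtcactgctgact
Ifit3: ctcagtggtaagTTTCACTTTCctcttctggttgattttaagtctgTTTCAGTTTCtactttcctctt
Oas1a: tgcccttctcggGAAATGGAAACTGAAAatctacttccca
Bst2: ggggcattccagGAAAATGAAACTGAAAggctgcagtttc
Gbp3: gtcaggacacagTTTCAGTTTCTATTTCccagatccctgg
Stat2: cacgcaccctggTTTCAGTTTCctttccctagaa
Ifitm3: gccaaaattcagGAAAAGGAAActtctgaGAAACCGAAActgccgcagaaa
The Isg15 stretch is at chr4:156200863-156200908 on the minus strand and holds 3 overlapping matches. The Ifit1 stretch is at chr19:34640773-34640825 and the Ifit3 stretch at chr19:34583361-34583428, both on the plus strand, each with 2 separate matches. The Oas1a stretch is at chr5:120907518-120907557 on the minus strand, and its first match begins 20 bases before the start. The Bst2 stretch is at chr8:71537575-71537614 on the minus strand, the Gbp3 stretch at chr3:142559987-142560026 on the plus strand, and the Stat2 stretch at chr10:128270264-128270297 on the plus strand. In Ifitm3, at chr7:141010704-141010754 on the minus strand, the first match begins 2 bases after the start. These are reference letters, and the CAST/EiJ allele was not analysed here.

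Promoter windows were found for 29 of the 33 genes. Ifi27, Usp18, Rtp4 and Parp14 are named only. The ISRE core was in the windows of 15 of the 29 genes (51.7%), against 1079 of 27025 genes (3.99%) and 1131 of 32851 windows (3.44%) in the whole table. Besides the 8 genes printed, the 15 were Gbp2, Eif2ak2, Ifih1, Ddx58, Trim30a, Ifitm2 and Rsad2. The related element GAS, searched as TTCNNNGAA on both strands, was in 9 of the 29 (31%), against 9.55% of genes. The 9 were Irf1, Ifnar1, Ifnar2, Ifit2, Ifi35, Bst2, Ifitm3, Oas1a and Eif2ak2. Both elements were in 4 genes, and in Bst2 and Ifitm3 the matched letters of the 2 elements overlap. A match is a run of letters and was not measured as a bound site.

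Presence of the ISRE core did not go with a high level at rest. The 15 genes with it had a median of 1.95 TPM (a share of all transcripts, scaled for their length), from 0.27 to 12.1, and 10 of the 15 reached 1 TPM in both libraries. The 14 genes with a window but without the core had a median of 3.13 TPM, from 0.47 to 24.3, and 12 of the 14 reached it. The highest of these were the receptor subunits Ifnar1 (24.3 TPM) and Ifnar2 (10.7 TPM) and the factor Irf3 (13.6 TPM). The ranges of both groups overlap, and a difference between them was not tested.

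Expression was low across the 33 genes. Taking 1 TPM or more in both libraries as detected, 23 of the 33 were detected, against 58.9% of protein-coding genes. The median of the 33 was 1.65 TPM in replicate 1 and 2.59 TPM in replicate 2. Of the 23 detected, 2 exceeded the median of all detected protein-coding genes, 16.6 TPM, and their own median was 3.28 TPM. Only Ifi27, Ifnar1, Irf3 and Stat2 were at 10 TPM or more in both libraries, and 7 genes were below 1 TPM in both. Every one of the 33 had more than 3 counts in each library, the number taken as the limit that a count of 0 allows. Their summed level was 151 TPM in replicate 1 and 175 TPM in replicate 2 (163 ± 16.8, SD, n = 2), and the top 5 genes made up 61.0% and 58.4% of it. In bulk tissue, fewer cells of a type and less RNA per cell cannot be told apart.

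**Figure D1:**
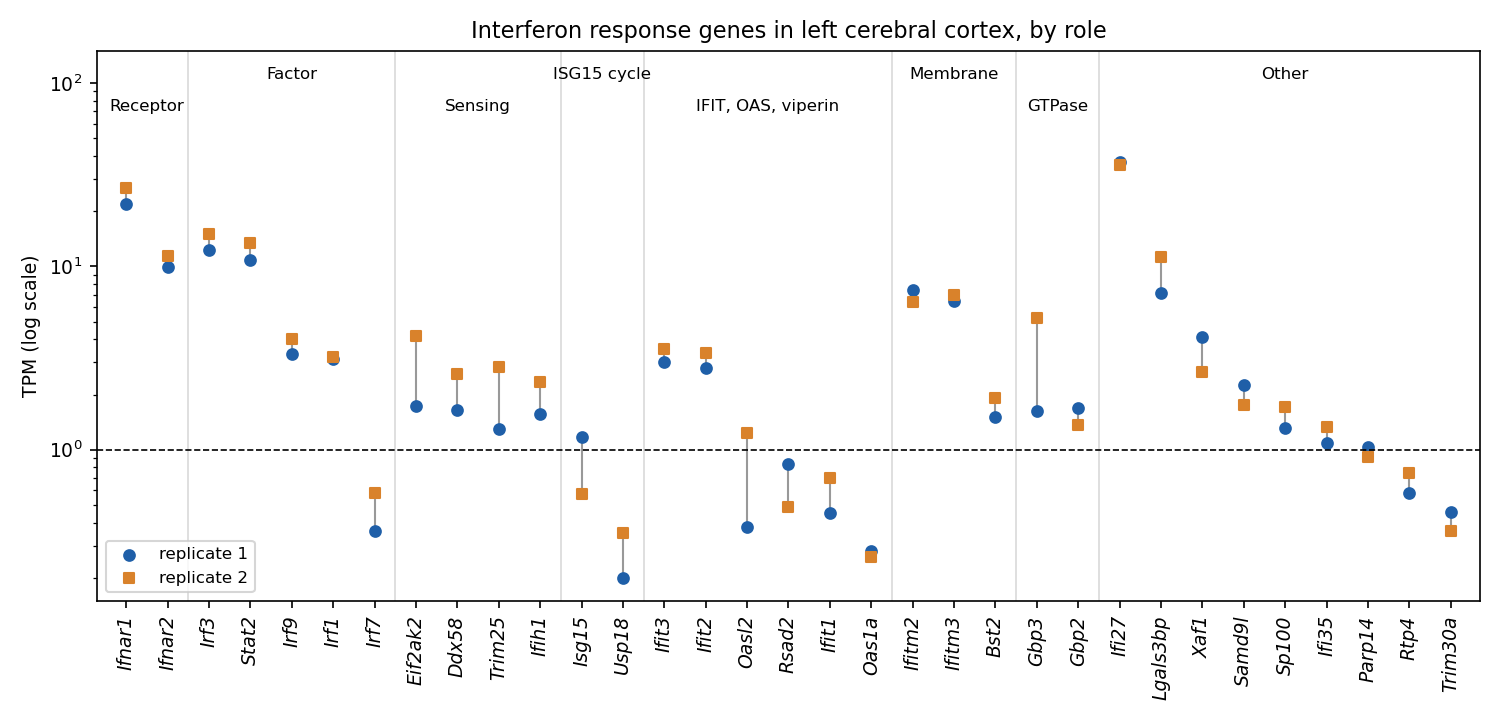
TPM (log scale) of the 33 genes in replicate 1 (circles) and replicate 2 (squares), grouped by role and joined by a line for each gene; the dashed line is 1 TPM. Ifi27 and Ifnar1 stand highest, and Irf7, Usp18, Rsad2, Ifit1, Oas1a, Rtp4 and Trim30a lie below 1 TPM in both libraries.

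The ligands themselves were at or near 0 counts. Of 21 interferon genes (the alpha genes, Ifnb1, Ifng and others), 18 had 0 counts in both libraries and 3 had 1 or 2 counts in a single library. For single interferon genes, a count of 0 allows up to 0.121 to 0.359 TPM in replicate 1 and 0.117 to 0.345 TPM in replicate 2, in counting error only.

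Both receptor subunits were clearly expressed. Ifnar1, the subunit that binds TYK2, was at 22.0 TPM in replicate 1 and 26.6 TPM in replicate 2 (24.3 ± 3.25, SD, n = 2). Ifnar2, the high-affinity subunit that also exists in a soluble form, was at 9.88 and 11.5 TPM (10.7 ± 1.12). Exons of Gm21970 overlap Ifnar2 on the same strand, and 6.31% of the 100-base words in Ifnar2 transcripts also occur in Gm21970. Ifnar1 was the higher in both animals, without overlap in these values, but the second kind of table, described below, gave values that overlap. The genes lie on the plus strand of chromosome 16, Ifnar2 at chr16:91372783-91405589 and Ifnar1 at chr16:91485238-91507441 (mm10). Their counts were 1100 and 1258 for Ifnar1 and 253 and 291 for Ifnar2. After scaling for depth, the log2 difference, replicate 2 minus replicate 1, was 0.06 (counting SE 0.06) for Ifnar1 and 0.06 (counting SE 0.12) for Ifnar2, which is within about 1 counting SE of no difference. Among the list of 9 receptor subunits and kinases, 8 were detected. Jak1 was at 57.9 and 57.7 TPM, and Tyk2 at 4.18 and 6.40 TPM.

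The 5 STAT and IRF factors among the 33 genes fell into 3 levels. Stat2, the STAT found almost entirely in type I and III interferon signalling, was at 10.8 and 13.4 TPM (12.1 ± 1.82, SD, n = 2). Irf3, the factor that is present before infection and is switched on by phosphorylation, was at 12.21 and 14.98 TPM (13.6 ± 1.96). The ranges of Stat2 and Irf3 overlap. Irf9, the DNA-binding part of ISGF3, was lower, at 3.32 and 4.00 TPM. Irf1, a factor induced above all by interferon gamma, was at 3.13 and 3.21 TPM. These again lie close together, and below every value of Stat2 and Irf3. Irf7, the factor that amplifies interferon production and is itself induced by interferon, had 8 and 19 counts, or 0.36 and 0.58 TPM. It was the only one of the 5 factors below 1 TPM in both animals by the deposited TPM. The credibility interval that the authors deposited beside that TPM lies wholly above it, at 0.685 to 2.18 TPM in replicate 1 and 0.959 to 2.45 TPM in replicate 2, so the level of Irf7 is uncertain. For Irf1 the intervals, 3.27 to 5.21 TPM and 3.25 to 5.34 TPM, also lie above the deposited values. Such a value below its own interval was found for 5 of the 33 genes, in both libraries for Irf1, Irf7 and Sp100 and in replicate 1 for Oasl2 and Ddx58. Exons on the opposite strand overlap Irf1 (Gm17334), Irf3 (Bcl2l12) and Irf7 (Phrf1), and no source used here says if reads were counted by strand, so these levels may hold reads of both strands. Rnf31 overlaps Irf9 on the same strand, and 0.411% of the 100-base words in Irf9 transcripts also occur in Rnf31. In the list of 12 STAT and IRF genes, 9 were detected, with Irf2 highest at 25.4 and 27.4 TPM.

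The RNA sensors were detected at low levels in both animals. Ifih1 (MDA5, the sensor of long double-stranded RNA) was at 1.56 and 2.34 TPM. Ddx58 (RIG-I, the sensor of RNA with a triphosphate end) was at 1.65 and 2.59 TPM. Trim25, the ubiquitin ligase linked to RIG-I activation, was at 1.29 and 2.81 TPM. In these 3 genes the values lie within the same span, and each was higher in replicate 2. Eif2ak2 (PKR, the kinase that halts translation on binding double-stranded RNA) was at 1.74 and 4.19 TPM, also higher in replicate 2, and Gm26637 and n-R5s29 overlap it on the opposite strand. In the wider list of 20 sensing genes, which includes these 4, 14 were detected. Its highest were Adar, the editor of double-stranded RNA, at 62.6 and 64.6 TPM, and Tbk1, the kinase that phosphorylates IRF3, at 21.6 and 22.1 TPM.

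Isg15 and Usp18 were near the limit of these libraries, unlike Ifit2 and Ifit3, which are described next. Isg15, a ubiquitin-like protein that is attached to other proteins, had 14 counts in replicate 1 and 7 in replicate 2, or 1.18 and 0.57 TPM. Usp18, which removes ISG15 and also blocks signalling at IFNAR2, had 6 and 11 counts, or 0.20 and 0.35 TPM. Both are too shallow for a comparison between the animals, and Gm44148 overlaps Usp18 on the opposite strand.

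The IFIT proteins, which bind foreign RNA or its partners, were uneven. Ifit2 had 169 and 236 counts, or 2.80 and 3.37 TPM, and Ifit3 had 89.96 and 110 counts, or 3.01 and 3.55 TPM. Ifit1 was lower than both, with 21 and 33.8 counts, or 0.45 and 0.70 TPM. The 3 genes are on the plus strand of chromosome 19, Ifit2 at chr19:34550694-34576419, Ifit3 at chr19:34583531-34588731 and Ifit1 at chr19:34640871-34650009 (mm10). Of the 100-base words in Ifit3 transcripts, 31.7% also occur in Ifit3b, so the split of reads between Ifit3 and Ifit3b is uncertain. The deposited tables gave Ifit3b 1.22 and 1.89 TPM. Of the 6 IFIT genes listed, 4 were detected.

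The other RNA-directed effectors were low. Oas1a, an enzyme that makes oligoadenylates on binding double-stranded RNA, had 9 and 8.7 counts, or 0.28 and 0.26 TPM, and 40.9% of its 100-base words occur in Oas1g as well. Oasl2, a relative of the OAS enzymes, had 8 counts in replicate 1 and 31 in replicate 2, or 0.38 and 1.24 TPM. Rsad2 (viperin, which makes a chain-ending nucleotide) had 12 counts in replicate 1 and 31 in replicate 2, but 0.84 and 0.49 TPM. For Rsad2, counts and TPM run in opposite directions, and the transcripts behind this are described with the TPM scale.

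Among genes of membrane restriction factors, Ifitm2 and Ifitm3 were above most of the 33 genes and Bst2 was not. Ifitm2 and Ifitm3 encode proteins that hinder the fusion of viruses with endosomes. Ifitm2 was at 7.45 and 6.40 TPM and Ifitm3 at 6.48 and 6.97 TPM. The pair overlap in range and had 67 to 76 counts each, since both transcripts are short. Of the 100-base words of Ifitm2, 34.9% also occur in Gm11951, Gm45717 or Gm8865, so its level is uncertain, while Ifitm3 shares none. Bst2 (tetherin, which holds budding virus at the cell surface) was lower, at 1.51 and 1.92 TPM from 19 and 25 counts.

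The guanylate-binding GTPases, which coat vacuoles that hold pathogens, were at a few TPM. Gbp2 was at 1.69 and 1.36 TPM, with Mir6381 on the opposite strand. Gbp3 was at 1.63 TPM in replicate 1 and 5.23 TPM in replicate 2. Gbp3 is thus the member with the widest gap between the animals among those with enough counts to compare, and Gbp2 lies the other way. In the list of 17 GBP and IRG genes, 7 were detected, Irgm1 among the highest at 3.11 and 3.91 TPM.

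The remaining genes included the highest and some of the lowest of the 33. Ifi27, a small interferon-induced membrane protein, was at 37.3 and 35.8 TPM (36.5 ± 1.1, SD, n = 2), from 404 and 416 counts. It alone gave 24.7% and 20.4% of the summed level of the 33 genes, and it lies on the plus strand at chr12:103434211-103440239 (mm10). Its paralogues were far lower: Ifi27l2a at 1.06 and 0.88 TPM, and Ifi27l2b with 0 counts and 1 count. Lgals3bp, a secreted glycoprotein that binds galectins, was at 7.15 and 11.2 TPM. Xaf1, a partner of the apoptosis inhibitor XIAP, was at 4.14 and 2.64 TPM. Samd9l, a restrainer of cell growth and of virus replication, was at 2.26 and 1.76 TPM. By these values Lgals3bp was higher in replicate 2, and Xaf1 and Samd9l were lower. Sp100, a scaffold of nuclear bodies, was at 1.32 and 1.71 TPM. Ifi35, a binding partner of NMI, was at 1.09 and 1.33 TPM, with Gm11626 on the opposite strand. Parp14, an enzyme that adds ADP-ribose to proteins, was at 1.04 and 0.91 TPM. These 3 lie close to the cutoff of 1 TPM chosen here, and Parp14 falls below it in replicate 2. Rtp4, a chaperone of G protein-coupled receptors, was at 0.58 and 0.75 TPM from 10 and 15 counts, and 9.28% of its 100-base words occur in Gm45338. Trim30a, a ubiquitin ligase that dampens Toll-like receptor signalling, was at 0.46 and 0.36 TPM from 30.5 and 25 counts.

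In the order of mean TPM, the values of 27 of the 32 neighbouring pairs overlap between the animals. The pairs that do not are Ifi27 above Ifnar1, Ifnar1 above Irf3, Ifitm3 above Irf9, Ifi35 above Parp14 and Trim30a above Usp18. The finer order within those steps is therefore not resolved by 2 animals.

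In the lists of related genes, receptors, kinases and antigen presentation genes were higher than most induced genes, as the plot of levels by list shows. Median levels were 10.7 TPM for the receptors and kinases and 11.8 TPM for 14 antigen presentation genes, of which 12 were detected and B2m, the shared light chain of class I molecules, was at 52.4 and 59.7 TPM. By contrast, 42 other interferon-induced genes had a median of 0.568 TPM and 19 detected, although Ly6e, a surface protein, reached 125 and 121 TPM. The OAS list had a median of 0.03 TPM and the GBP and IRG list 0.58 TPM. These lists share some of the 33 genes and are described only by their counts and medians.

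**Figure D2:**
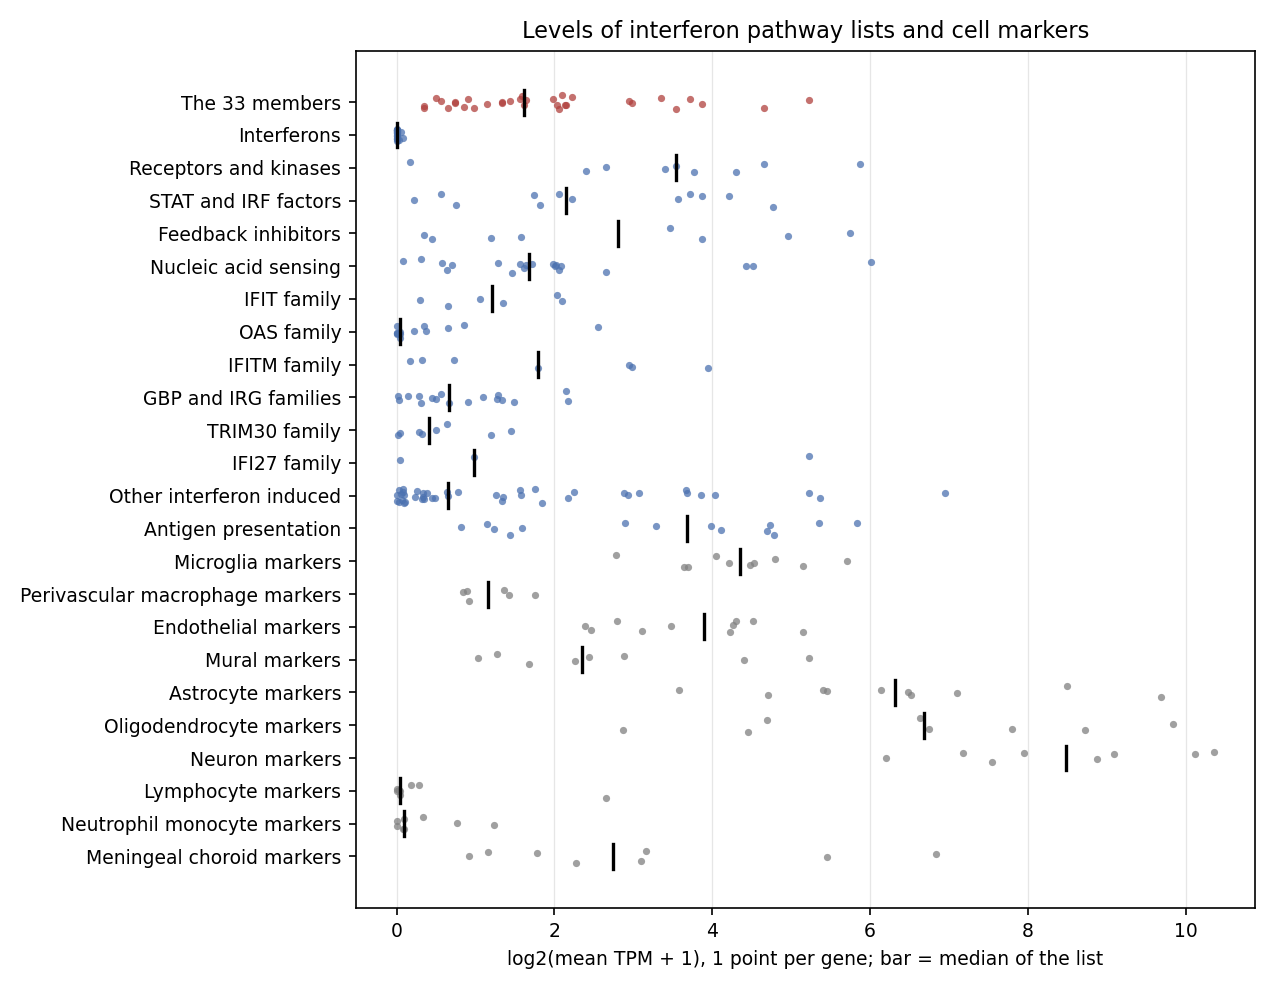
Mean TPM of both libraries as log2(TPM + 1), 1 point per gene, for the 33 genes, the interferon pathway lists and the cell type marker lists, with a bar at each list's median. The interferon genes sit at 0, and most markers of lymphocytes and of neutrophils and monocytes are close to 0, with Cd4, Ly6c2 and S100a8 above the rest.

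Markers of the main cell types of cortex were present. All 10 microglia markers were detected, with a median of 19.4 TPM, as were all 10 endothelial, all 10 astrocyte and all 8 neuron markers. Lymphocyte markers were near 0 except Cd4, the 1 of 8 detected, at 4.22 and 6.34 TPM. Of 8 neutrophil and monocyte markers 1 was detected, Ly6c2 at 1.44 and 1.28 TPM. Which cells carried the RNA of Cd4 or of the 33 genes was not tested.

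Differences between the animals were small for most of the genes deep enough to compare. At an average of 50 counts or more, 22 of the 33 genes could be compared and 11 could not. After edgeR's TMM scaling, 15 were higher and 7 lower in replicate 2, against 45.6% of all 14122 genes higher. The direction depends on the scale: with spike-in scaling 18 of the 22 were higher and 88.1% of all genes were too. The median log2 difference of the 22 was 0.17 against -0.02 for all genes, and with spike-ins 0.44 against 0.25. The median size of a log2 difference, sign aside, was 0.31 for the 22 and 0.15 for all genes, many of which have far more counts. The median counting SE of the 22 was 0.17.

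None of the 22 passed 2-fold, against 1.25% of all genes. Past 1.5-fold were 2 of the 22, against 6.05% of all genes, and both were higher in replicate 2, where 3.7% of all genes were past 1.5-fold higher. These were Gbp3, with 66.9 counts in replicate 1 and 120 in replicate 2, a log2 difference of 0.70 (counting SE 0.22), and Ifih1, with 115 and 192 counts, a log2 difference of 0.60 (counting SE 0.17). Neither stands far above the threshold, and with 1 library per animal neither has a replicate check.

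Differences over 2 counting SE were found for 8 of the 22, against 46.5% of all genes. Of these, 7 were higher in replicate 2: Gbp3, Ifih1, Trim25 at 0.51 (counting SE 0.16), Irf9 at 0.41 (0.17), Ifit2 at 0.34 (0.15), Eif2ak2 at 0.34 (0.17) and Stat2 at 0.19 (0.08). The gene lower by that measure was Samd9l, at -0.44 (counting SE 0.15), with 214 counts in replicate 1 and 173 in replicate 2. Ddx58 at 0.29 (0.19), Ifnar1, Ifnar2 and Ifi27 at -0.09 (0.10) were within 2 counting SE of no difference. The wider lists were mixed. Among measured sensing genes 7 were higher and 6 lower in replicate 2 (median log2 difference 0.03, with Traf3 at -0.59 and Tlr7 at -0.73). Among STAT and IRF genes 4 were higher and 5 lower (median -0.03). Receptors and kinases had 4 higher and 4 lower (-0.01), and other interferon-induced genes 7 higher and 11 lower (-0.04). By contrast, GBP and IRG genes had 7 higher and 1 lower (0.33), and IFIT genes 3 higher and 0 lower (0.34). Antigen presentation genes had 7 higher and 3 lower (0.09). Several of these lists include genes of the 22. The others of the 22 below 0 were Gbp2 at -0.39 (0.25), Xaf1 at -0.38 (0.21), Ifitm2 at -0.30 (0.24), Irf3 at -0.23 (0.13) and Irf1 at -0.21 (0.19). None of these 5 was past 2 counting SE.

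**Figure D3:**
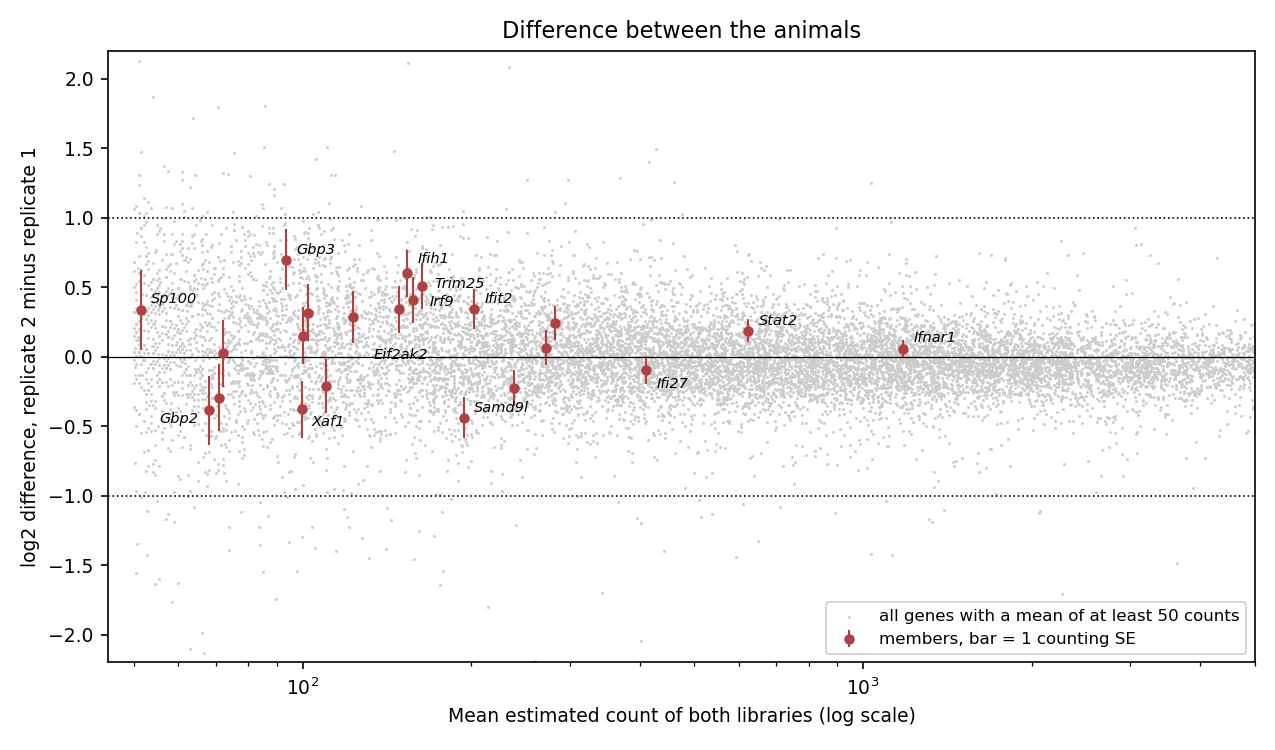
Log2 difference of scaled counts, replicate 2 minus replicate 1, against the mean estimated count (log scale) for every gene averaging 50 counts or more (grey) and the 22 of the 33 genes among them (red, bar of 1 counting SE); dotted lines mark 2-fold and genes beyond the axes are not drawn. The 22 genes lie between -0.44 (Samd9l) and 0.70 (Gbp3), inside the dotted lines.

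Medians of most cell marker lists were close to that of all genes. The median log2 difference was -0.04 over 10 microglia markers (4 higher) and -0.05 over 10 endothelial markers (5 higher), although Itm2a and Slco1a4, both endothelial, were at 0.65 and 0.59. It was 0.22 over 7 mural markers (6 higher). Over 8 oligodendrocyte markers it was 0.06 (6 higher), with Opalin at 1.06 (3.80 and 8.78 TPM), Mag at 0.55 and Ermn at -0.52. Perivascular macrophage markers ran the other way, with a summed level of 10.3 TPM in replicate 1 and 5.94 TPM in replicate 2, 0 of 3 measured markers higher, and F13a1 at -1.23. The choroid plexus gene Ttr was at 172 and 55.7 TPM. The part of these cells in the differences of the 33 genes was not tested.

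On the TPM scale the same animals looked further apart. By TPM, 6 of the 22 were past 1.5-fold, against 8.76% of all genes, and 3 past 2-fold, against 2.06%. The 3 were Gbp3, Eif2ak2 and Trim25, with log2 TPM differences of 1.68, 1.27 and 1.12 where scaled counts gave 0.70, 0.34 and 0.51. The authors' credibility intervals did not overlap between the libraries for 3 of the 22, against 19.8% of all genes, and these were the same 3 genes. The other 3 past 1.5-fold by TPM were Lgals3bp and Ddx58, both 0.65, and Xaf1, -0.65. Irf3, Irf1 and Parp14 differed in sign between the scales: Irf3 was -0.23 by counts and 0.29 by TPM, Irf1 was -0.21 and 0.04, and Parp14 was 0.32 and -0.19.

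**Figure D4:**
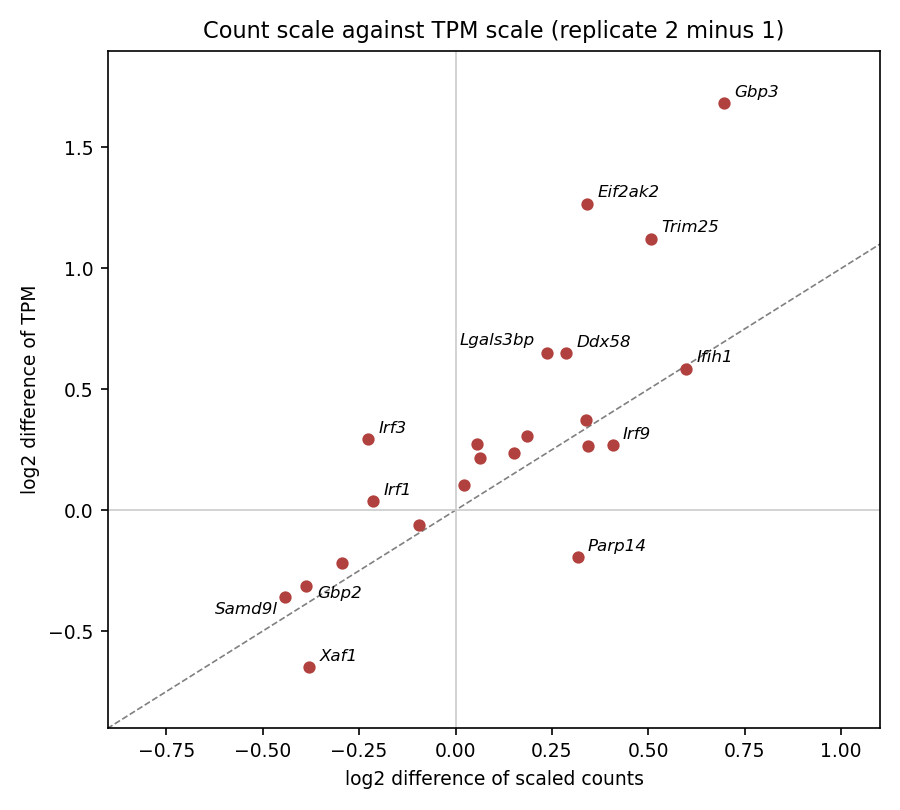
Log2 difference of TPM against log2 difference of scaled counts, replicate 2 minus replicate 1, for the 22 genes averaging 50 counts or more; the dashed line marks equal values. Gbp3, Eif2ak2 and Trim25 lie far above the line, and Parp14 below it.

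In each of the 3 genes, a short transcript was assigned reads in replicate 2 that it lacked or nearly lacked in replicate 1. This holds for the first kind of table, and TPM divides by length. For Gbp3, Gbp3-205 (477 nt) held 0 counts in replicate 1 and 20.4 in replicate 2, yet 0% and 54.8% of the gene's TPM. For Eif2ak2, the retained-intron transcript Eif2ak2-204 (704 nt) held 0 and 22.0 counts, and 0% and 46.0% of TPM. For Trim25, Trim25-202 (1433 nt) held 0.19 and 29.3 counts, and 0.6% and 41.4% of TPM, beside Trim25-201 (5566 nt). In replicate 2 these transcripts alone were at 2.87 TPM for Gbp3, 1.93 TPM for Eif2ak2 and 1.16 TPM for Trim25, which is most of each gene's gap in TPM. For Rsad2, Rsad2-203, a processed transcript of 430 nt, held 4.32 counts and 86.2% of TPM in replicate 1 against 0.38 counts and 12.4% in replicate 2, while the coding Rsad2-201 (3782 nt) held 7.68 and 24.2 counts.

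The second kind of table, another estimate from the same libraries, gave close levels for most of the genes. Of the 23 detected genes, 2 differed by more than 1.5-fold in mean TPM between the tables, against 3.66% of detected protein-coding genes. Ddx58 was at 3.10 and 5.81 TPM there, 2.10 times the first table, and its 435 nt processed transcript Ddx58-208, at 0 in the first table, held 53.4% and 55.4% of its TPM. Ifnar1 was at 13.6 and 16.0 TPM, 0.608 times the first table, in which Ifnar1-204 (415 nt) held 17.6% and 25.96% of TPM against 0 in the second. The step from Ifnar1 to Irf3 is smaller there, with Irf3 at 10.5 and 15.4 TPM, so the values of these genes overlap. Ifnar2 was at 9.99 and 14.2 TPM there, so its values overlap those of Ifnar1 as well. The values of Ifi35 (0.856 and 1.30 TPM) and Parp14 (0.825 and 0.873 TPM) also overlap there. Eif2ak2 was at 2.94 and 3.92 TPM, with Eif2ak2-204 at 0 in both libraries. Gbp3 kept its gap, at 1.67 and 4.97 TPM, with Gbp3-205 at 0% and 41.8%. Trim25 was at 1.58 and 2.62 TPM, with Trim25-202 at 26.1% and 37.4%, so that transcript was not absent from replicate 1 there. Trim25-201 held 73.5% and 0% there, and Trim25-203 (5590 nt) 0.369% and 62.6%. Among the genes not detected, Trim30a was at 0.869 and 1.23 TPM in the second table, 2.56 times the first, and Rsad2 at 1.58 and 0.658 TPM, 1.69 times the first. The retained-intron transcript Trim30a-203 (314 nt) held 53.4% and 73.1% of the TPM of Trim30a there, against 0 in the first table. The direction between the animals also depended on the table for some TPM values: Xaf1 was at 3.41 and 3.87 TPM there and Samd9l at 1.899 and 2.205 TPM, both higher in replicate 2, and Irf1, Irf7, Oas1a, Trim30a and Parp14 likewise ran opposite to the first table. By scaled counts of the second table, Samd9l was -0.54 and Xaf1 -0.09.

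Of the 33 genes, 6 have 1 annotated transcript and 27 several. Among the 27, the leading transcript by TPM was the same in both libraries for 20 and the same in both kinds of table for 21. The leading transcript was protein coding for 29 of the 33 genes. The other 4 were Irf3 (Irf3-207, retained intron), Ifi27 (Ifi27-209, retained intron), Oasl2 (Oasl2-205, nonsense-mediated decay) and Rsad2 (Rsad2-203, processed transcript). Ifnar2 was divided among coding transcripts: Ifnar2-203 (1099 nt) held 55.8% and 72.4% of TPM and Ifnar2-201 (3047 nt) 19.5% and 17.5%, while by counts they were nearly level in replicate 1, at 99.9 and 103.

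Retained-intron transcripts, which keep intron sequence and are annotated as noncoding, held a large share of a few genes. Of the 19 genes that have several transcripts and average 50 counts or more, 6 had 20% or more of TPM in this class, against 16.3% of such protein-coding genes. They were Irf3 (75.8% in replicate 1 and 60.6% in replicate 2), Ifi27 (58.8% and 58.9%), Stat2 (40.6% and 42.1%), Irf9 (37.6% and 22.4%), Parp14 (43.0% and 13.3%) and Eif2ak2 (replicate 2 only). In the second table the shares were 48.8% and 45.2% for Irf3, 59.6% and 56.8% for Ifi27, and 47.8% and 49.1% for Stat2. By counts, which do not weight short transcripts, only Irf3 (67.7%) and Ifi27 (44.4%) of the 19 had 20% or more, a share of 10.5% against 8.42% of such genes, and Stat2 had 9.19%. For Irf3, the overlap with Bcl2l12 on the opposite strand was described with its level, and its part in the retained-intron share was not tested. Ifi27, the highest of the 33 genes by TPM had a mean of 41.2% of its TPM in protein-coding transcripts.

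**Figure D5:**
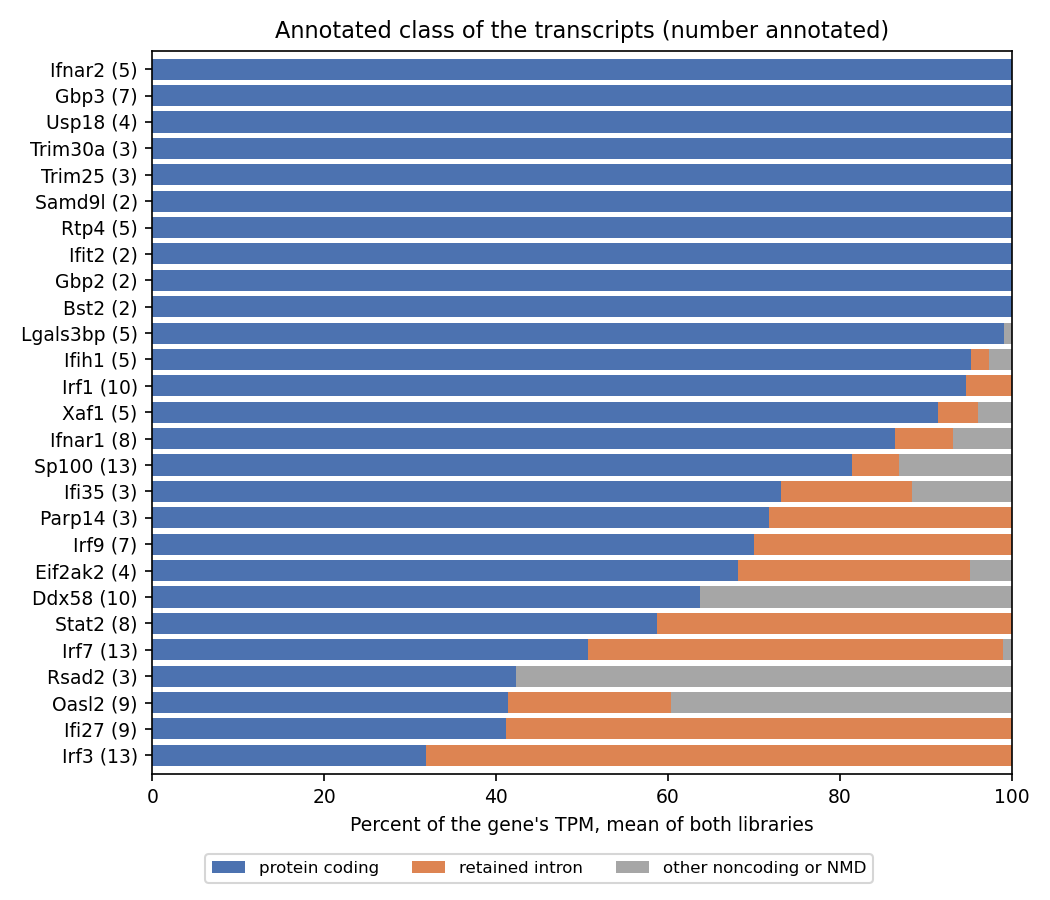
Percent of each gene's TPM in protein-coding (blue), retained-intron (orange) and other noncoding or nonsense-mediated decay transcripts (grey), mean of both libraries, for the 27 genes with several annotated transcripts (number in brackets). Irf3 and Ifi27 have the lowest coding shares, and 10 genes, Trim30a among them, are wholly in coding transcripts in this first kind of table.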

How the data were processed

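Ribosome-reduced total RNA was sequenced from 2 animals, 1 library each, from 300 ng of RNA with a directional kit and ERCC spike-ins, per the labels. Reads were mapped to mm10 with GENCODE M21, per the deposited readme; the aligner and the counting tools are not given in the sources. The authors' expected counts (reads shared out among the features they fit, not normalized) form a first table of genes and transcripts, and a second table gives estimated counts of transcripts. TPM values are deposited and scaled by the authors for length and to a fixed total. The percent of a gene's TPM per transcript is per the file headers, and the credibility bounds are deposited scores whose level is not stated. Reads of both alleles were assigned on the reference, which may lower the count of CAST/EiJ reads.

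Levels are mean ± SD of TPM over both animals. Rounded counts were scaled with edgeR 4.0.16 (TMM) in R 4.3.3 to log2 CPM with a prior count of 1, checked on simulated data. The counting SE comes from the pair of counts, and covers counting error only, since reads are not independent molecules. Genes needed a mean of at least 50 counts for a difference. Differences have no test, since 1 group has no contrast. The libraries differed beyond sampling noise (20184 genes, chi-square of 13.2 for each degree of freedom), so their counts are not a repeat deposit. That they come from separate animals rests on the animal numbers in the labels alone. Alternatives were DESeq2 1.42.0 size factors, library totals, spike-ins, other filters and prior counts, the second table and each library alone.

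The 33 genes and the 23 lists (267 symbols, 3 without a gene) were chosen with earlier results of these data known. All 33 genes are named, and a list gives at most 4 genes by TPM and 3 by size of difference. RefSeq promoter windows (GRCm38.p6) were searched as letters; for 25 of 35 windows the first 20 transcribed bases occur in a GENCODE transcript. Words of 100 bases were compared over all GENCODE transcripts.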

Additional observations from a re-analysis of the deposited data

How the results depend on the processing

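The count of detected genes was 23 at 1 TPM, 26 at 0.5 TPM, 13 at 2 TPM, 22 in the second table and 24 to 25 with each library alone, so the genes between 1 and 2 TPM decide it. With each library alone the median level was 1.65 to 2.59 TPM and the summed level 151 to 175 TPM. The median log2 difference was 0.17, and 0.44 with spike-in scaling, where all genes also shifted. Genes past 1.5-fold numbered 2, and 1 with a prior count of 5, 1 at a mean of at least 100 counts, 7 with no filter on low counts, 8 with spike-ins and 6 by the log2 ratio of TPM, a setting chosen after seeing the data. The share of all genes past 1.5-fold was 5.67%, 4.04%, 33.8%, 12.5% and 8.76% in the same order. Genes past 2-fold numbered 0, and 1 at a mean of at least 20 counts, 4 with no filter and 3 by TPM, where 2.74%, 18.9% and 2.06% of all genes were. Without a filter 23 of 33 genes were higher in replicate 2, against 15 of 22, and 50.7% of all genes were. Of single levels, 17 of 33 moved by more than their SD in the second table, and of single log2 differences 1 of 22 moved there, 12 by TPM and 21 with spike-ins. DESeq2 size factors and library totals moved none of the 22 by more than its counting SE. A coding leading transcript was found for 29 genes, and for 26 in the second table. No paired analysis was possible because there is only 1 group. Depth limits the 11 genes under 50 counts, whose differences are not read.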
